A study of Homo sapiens with 8 samples.

Results

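The genes described here are 41 genes of the ATF4 amino acid response, among them 12 cytosolic aminoacyl-tRNA synthetases. They were taken as a fixed list of gene symbols, which was chosen with earlier results of these data known. Of the 41, 40 had a probe set that names no other gene, and all 40 were tested, out of 19775 genes with such a probe set and 14072 tested. The remaining gene, MARS1, is read by 3 probe sets that also name a microRNA in the same gene, and was not tested.

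ATF4 is a transcription factor whose translation rises when kinases phosphorylate the initiation factor eIF2. The kinases answer to different stresses: EIF2AK4 (GCN2) to uncharged tRNA, EIF2AK3 (PERK) to misfolded protein in the endoplasmic reticulum, and EIF2AK1 (HRI) to lack of heme and, through the relay protein DELE1, to mitochondrial damage. ATF4 then raises genes that make amino acids, import them and attach them to tRNA, and a mRNA array does not measure the ATF4 protein itself. Pluripotent stem cells are known for high use of serine, methionine and one-carbon units.

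RNA was measured on 8 expression arrays in 4 groups of 2. The groups were embryoid bodies with 20 mM ethanol, embryoid bodies with 0 mM, undifferentiated cells with 20 mM and undifferentiated cells with 0 mM. Embryoid bodies are clumps of stem cells kept in suspension, where they begin to form cells of several lineages. The labels give H9, an established human embryonic stem cell line, mTeSR medium and 24 h of treatment for all groups, and give no age for the embryoid bodies. They call the arrays duplicates without saying whether these were separate cultures, so each p-value measures only the spread between these arrays, which may be technical.

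Every array had been scaled to a trimmed mean signal of 500 to 500.1, and the median signal was 102 in embryoid bodies with ethanol, 85.1 without it, 74.1 to 79.4 in undifferentiated cells with ethanol and 69.2 to 70.8 without it. A check on transcripts that vary between lines disagreed with the named line for 4 of 8 arrays, and all 4 were of the same stage, so stage and line cannot be told apart in these arrays. Comparisons of ethanol within a stage do not cross that boundary. A change below is the log2 difference between group means with its standard error (SE), and a gene is said to have risen or fallen where limma's p, adjusted by Benjamini-Hochberg over all 14072 genes, was under 0.05.

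A sequence feature known for this response is the composite C/EBP-ATF element, also called the amino acid response element, read here as TGATGNAA on either strand. RefSeq promoter windows (GRCh38.p14, 250 bases before to 50 after the annotated start) were at hand for 34 of the 41 genes. The element stood in the windows of 15 of these 34 (44.1%), against 4.46% of 27305 genes with a window. With C fixed at the free position, it stood in 10 of 34 (29.4%), against 1.08% of all. It was in 7 of 10 synthetases, 4 of 6 transporters, 1 of 3 asparagine and transsulfuration enzymes, 2 of 8 regulators, 1 of 4 other target genes and 0 of 3 serine and one-carbon enzymes. Among 9 cytosolic synthetases and cofactors outside the list it was in 0, and among 14 mitochondrial synthetases in 1. Many of the genes were listed as ATF4 targets on knowledge that includes such elements, so this is a description of the list. ATF4 itself, DELE1 and EIF2AK1 were listed as regulators.

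Stretches from 9 of the 15 windows are shown because they cover the response's best-known gene (ASNS), 2 further targets, 4 synthetases and 2 transporters. They read 5′ to 3′ on the gene's own strand, with the element in capitals. ASNS lies at chr7:97872453-97872492 on the minus strand, CHAC1 at chr15:40953246-40953285 (plus), CEBPG at chr19:33374055-33374094 (plus), TARS1 at chr5:33440951-33440990 (plus), IARS1 at chr9:92293687-92293726 (minus), AARS1 at chr16:70289670-70289709 (minus), GARS1 at chr7:30594829-30594868 (plus), SLC1A4 at chr2:64989376-64989415 (plus) and SLC3A2 at chr11:62881720-62881748 (plus).
ASNS: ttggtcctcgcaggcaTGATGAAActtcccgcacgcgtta
CHAC1: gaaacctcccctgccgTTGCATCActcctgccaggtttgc
CEBPG: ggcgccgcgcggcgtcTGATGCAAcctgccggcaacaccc
TARS1: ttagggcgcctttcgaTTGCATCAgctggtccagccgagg
IARS1: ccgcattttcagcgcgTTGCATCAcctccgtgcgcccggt
AARS1: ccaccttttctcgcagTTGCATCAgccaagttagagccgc
GARS1: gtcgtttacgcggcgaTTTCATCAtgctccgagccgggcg
SLC1A4: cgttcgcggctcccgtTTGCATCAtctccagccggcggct
SLC3A2: taatgtgcaggactccTTACATCAgctcc

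In ASNS and CEBPG the element is on the gene's strand, and in the other 7 on the opposite strand. A match describes these letters and is not a test of binding.

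**Figure D1:**
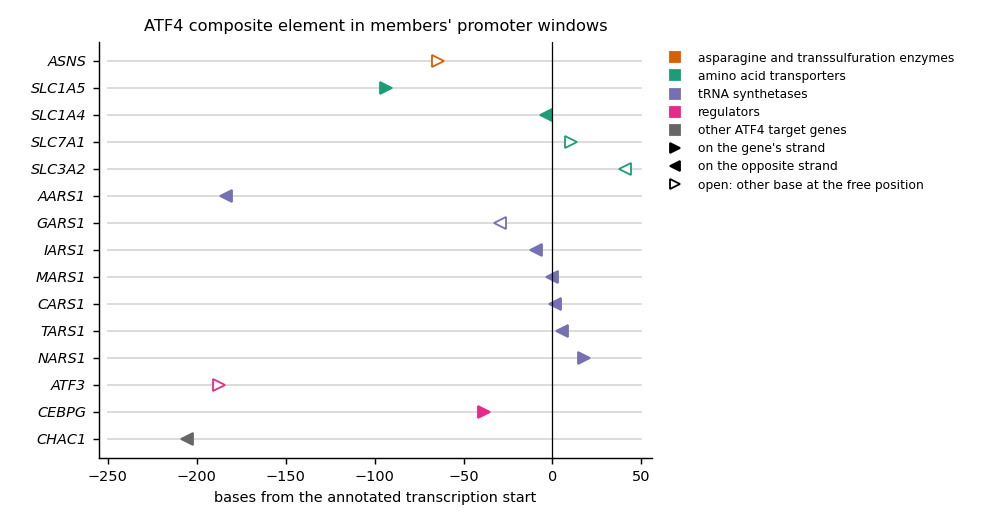
Position of the element in the 15 promoter windows that hold it, in bases from the annotated transcription start, with 1 gene per line. Arrows give the strand, colours the gene group, and filled arrows the form with C at the free position. In the synthetases, 6 of 7 elements lie within 33 bases of the start, and in AARS1 the element starts at -187.

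The first question was how these genes differ between stages. Embryoid bodies had lower levels of most of them than undifferentiated cells, at both doses. Without ethanol 25 of the 40 tested genes fell (ALDH1L2 among them, which passed the filter only through the undifferentiated arrays) and 5 rose, so 75% were called against 52.8% of all genes (24.7% fell and 28.1% rose). With ethanol 26 fell and 7 rose, against 56.3% of all genes (27.1% fell and 29.2% rose). Enzymes of serine and asparagine synthesis, transsulfuration and mitochondrial one-carbon metabolism were on the falling side, and 4 amino acid transporters and DDIT3 on the rising side. The median change of the 40 genes was -0.43 without ethanol and -0.41 with it, against 0.02 over all genes in both.

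These 2 stage comparisons share no array, although they share 1 estimate of the spread. Of the 25 genes that fell without ethanol, 22 also fell with it (88%, and 84.6% of the 26), against 81.8% and 74.6% for all genes. All 5 that rose without ethanol also rose with it. The arrays of the 2 stages did not overlap in 36 of 40 genes at each dose, against 78.4% of all genes at 0 mM and 77.2% at 20 mM. Bright genes in general were lower in embryoid bodies: 17 of the 40 lay in the brightest decile of tested genes, whose median over all its genes was -0.22 without ethanol and -0.30 with it.

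The stages also differed in cell makeup. All 9 endoderm and yolk sac markers and all 8 mesenchyme markers rose at both doses, and 7 of 8 neural markers rose at both. The other neural marker, TUBB3, fell at 20 mM. Of 4 cardiac and endothelial markers, 1 rose at each dose and 1 fell at 0 mM, and of 2 trophoblast markers 1 rose and 1 fell at each dose. Some of the rising markers, among them FGB, APOB, GATA4, TWIST1 and MYL7, passed the filter only through the embryoid body arrays. Their rises therefore followed in part from that filter. Of 8 pluripotent cell markers, 5 fell without ethanol and 7 with it. Summed over its genes, the pluripotent list gave signals of 79467 to 83355 in embryoid bodies with ethanol, 91305 to 93769 without it, 120307 to 126333 in undifferentiated cells with ethanol and 117258 to 121485 without it. The endoderm list gave 42031 to 42856 and 31983 to 32063 in embryoid bodies with and without ethanol, against 788 to 1074 in undifferentiated cells. The mesenchyme list gave 70117 to 71061 and 46315 to 47562 in embryoid bodies with and without ethanol, against 7816 to 9747 in undifferentiated cells. The neural list gave 30564 to 31818 and 32945 to 33739 in embryoid bodies with and without ethanol, against 20423 to 21976 in undifferentiated cells. No marker was at 0, and NANOG and SOX2 remained at 3715 or more on every embryoid body array. Fewer cells of a type and less RNA per cell cannot be told apart in bulk RNA, and the part of cell makeup in the changes below was not tested.

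**Figure D2:**
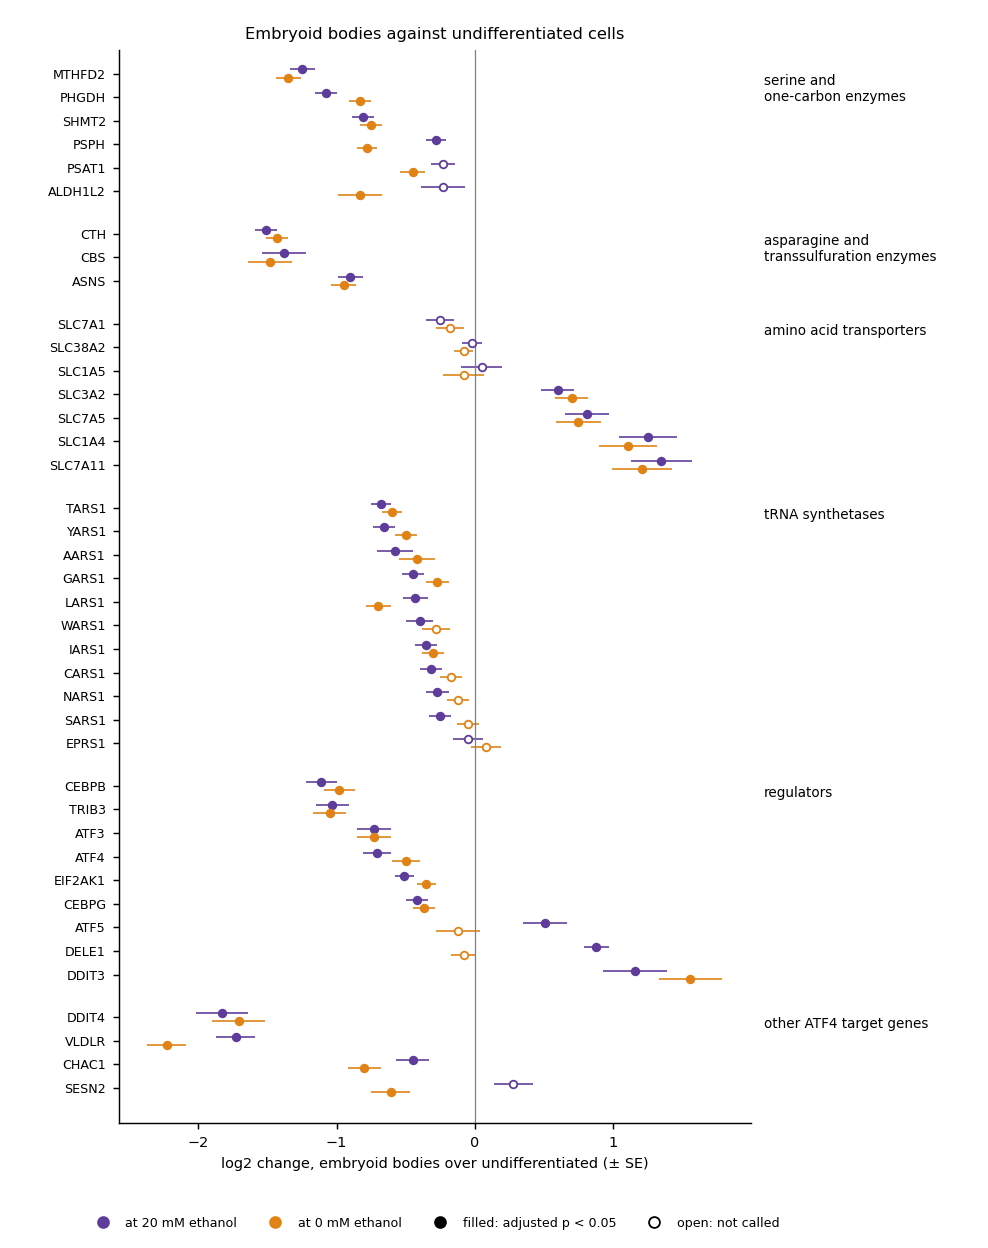
Change between stages for the 40 tested genes (log2, embryoid bodies over undifferentiated cells), by gene group, with ± SE bars. Purple points are at 20 mM and orange points at 0 mM, and filled points passed adjusted p under 0.05. Enzymes lie left of 0, SLC3A2, SLC7A5, SLC1A4 and SLC7A11 right of it, and the synthetases between -0.70 and 0.08.

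Of 6 serine and mitochondrial one-carbon enzymes, 4 (MTHFD2, PHGDH, SHMT2 and PSAT1) fell in embryoid bodies without ethanol, by 0.45 to 1.35, and 3 of these also fell with it. The other 2, PSPH and ALDH1L2, were called lower at 0 mM too, with limits given below: the probe sets of PSPH disagreed, and ALDH1L2 passed the filter on low signals through the undifferentiated arrays alone. Among all genes tested, 24.7% fell at 0 mM and 27.1% at 20 mM. MTHFD2, the mitochondrial enzyme that oxidises methylene-tetrahydrofolate, fell furthest in this group. It read 5129 and 5248 in embryoid bodies with ethanol and 5754 and 5623 without it, against 11480 and 13180 in undifferentiated cells with ethanol and 14790 and 14130 without it. All 4 embryoid body arrays lay below all 4 undifferentiated arrays, and the change without ethanol was -1.35 ± 0.09, a 2.54-fold fall (adjusted p = 0.000199). With ethanol it was -1.25 ± 0.09 (adjusted p = 0.000211).

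PHGDH, which takes the first step from glycolysis to serine, read 4266 and 3981 in embryoid bodies with ethanol and 5129 and 5012 without it. The undifferentiated arrays read 8318 and 9120 with ethanol and 8913 and 9120 without it. The stages did not overlap, and PHGDH fell by 0.83 ± 0.08 without ethanol (adjusted p = 0.000641) and by 1.08 ± 0.08 with it (adjusted p = 0.000241). SHMT2, which splits serine into glycine and a one-carbon unit in mitochondria, read 3890 and 3981 in embryoid bodies with ethanol and 4266 and 4365 without it. In undifferentiated cells it read 6607 and 7244 with ethanol and 7079 and 7413 without it. Here too the stages did not overlap, with changes of -0.75 without ethanol (adjusted p = 8e-04) and -0.81 with it (adjusted p = 0.000518). Its 3 probe sets lay between -0.81 and -0.75 without ethanol.

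PSAT1, the transaminase of the second step, differed less. It read 10000 on both embryoid body arrays with ethanol and 10230 and 10000 without it, against 12590 and 10960 in undifferentiated cells with ethanol and 14130 and 13490 without it. The fall passed without ethanol (-0.45 ± 0.09, adjusted p = 0.00758), and with ethanol the change was -0.23 ± 0.09 (adjusted p = 0.0648). ALDH1L2, a mitochondrial formyl-tetrahydrofolate dehydrogenase, was dim. It lay above the array median on all 4 undifferentiated arrays (97.7 to 126) and on none of the 4 embryoid body arrays (95.5 and 97.7 with ethanol, 55.0 and 70.8 without it). It therefore entered the test through the undifferentiated cells alone, so its fall at 0 mM (-0.83 ± 0.16) followed in part from that filter.

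PSPH, the phosphatase that completes serine synthesis, gave opposite answers by probe set. Its brightest probe set, 205194_at, read 1995 and 2188 in embryoid bodies with ethanol and 1514 and 1549 without it, against 2570 and 2512 in undifferentiated cells with ethanol and 2630 on both arrays without it. By that probe set PSPH fell by 0.78 ± 0.07 without ethanol (adjusted p = 0.000621) and by 0.28 ± 0.07 with it (adjusted p = 0.0199). The second, 205048_s_at, read 1380 and 1514 in embryoid bodies with ethanol and 1259 and 1349 without it, against 661 and 832 in undifferentiated cells with ethanol and 776 and 832 without it. In a fit of all probe sets, an alternative chosen after seeing the data, the second rose by 0.70 ± 0.13 without ethanol (adjusted p = 0.00828) and by 0.96 ± 0.13 with it (adjusted p = 0.00237). The direction of PSPH between stages is therefore unsettled. RefSeq also annotates a pseudogene, PSPHP1, and whether a probe set reads it was not tested. The call at 20 mM ended without the embryoid body 20 mM replicate A (-0.22, adjusted p = 0.0966) and without the undifferentiated 20 mM replicate A (-0.27, adjusted p = 0.0622).

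The asparagine and transsulfuration enzymes fell at both doses, 3 of 3 each time, against 24.7% of all genes at 0 mM and 27.1% at 20 mM. ASNS, which makes asparagine and is the standard reporter of amino acid shortage, read 3802 and 3890 in embryoid bodies with ethanol and 4074 on both arrays without it. The undifferentiated arrays read 6607 and 7762 with ethanol and 7762 and 7943 without it. The stages did not overlap, and ASNS was 1.93-fold lower without ethanol (-0.95 ± 0.09, adjusted p = 0.000692) and 1.86-fold lower with it (adjusted p = 7e-04). Averaging its 2 probe sets, of which the second did not pass the filter, ended both calls (-0.34, adjusted p = 0.664, and -0.22, adjusted p = 0.787).

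CTH, the enzyme that releases cysteine in the last step of transsulfuration, read 933 and 977 in embryoid bodies with ethanol and 1000 and 1072 without it. It read 2630 and 2818 in undifferentiated cells with ethanol and 2884 and 2692 without it. This was a 2.69-fold fall without ethanol (-1.43 ± 0.08, adjusted p = 0.000132) and the smallest adjusted p of the 40 genes at that dose. CBS, which takes the step before CTH, read 1047 and 955 in embryoid bodies with ethanol and 1096 and 1259 without it, against 2239 and 3020 in undifferentiated cells with ethanol and 3236 and 3311 without it. Its change was -1.48 ± 0.16 without ethanol (adjusted p = 0.000926) and -1.38 ± 0.16 with it (adjusted p = 0.000977). Each tested probe set of CTH (2) and CBS (3) had a negative change at both doses.

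Of 7 amino acid transporters, 4 rose at both doses and 0 fell, with medians of 0.70 without ethanol and 0.60 with it. The share called is near the 52.8% and 56.3% of all genes called. SLC7A11, the light chain of the cystine-glutamate exchanger, read 3311 on both embryoid body arrays with ethanol and 3162 and 3236 without it. It read 1023 and 1660 in undifferentiated cells with ethanol and 1288 and 1479 without it. No undifferentiated array reached the embryoid bodies, and the rise was 2.32-fold without ethanol (1.21 ± 0.22, adjusted p = 0.00603) and 2.54-fold with it (1.35 ± 0.22, adjusted p = 0.00361). The 2 undifferentiated arrays with ethanol lay far from each other for this gene (SD 0.49 on the log2 scale). All 3 of its tested probe sets had positive changes, from 0.38 to 1.21 without ethanol.

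SLC3A2, the heavy chain that SLC7A11 and SLC7A5 both need, read 2884 and 3020 in embryoid bodies with ethanol and 3090 and 3020 without it. In undifferentiated cells it read 1738 and 2188 with ethanol and 1905 and 1862 without it, and it rose by 0.70 ± 0.12 without ethanol (adjusted p = 0.00446). SLC7A5, the light chain of the large neutral amino acid transporter LAT1, read 5623 and 5754 in embryoid bodies with ethanol and 5495 on both arrays without it, against 2754 and 3802 in undifferentiated cells with ethanol and 3090 and 3467 without it. It rose by 0.75 ± 0.16 without ethanol (adjusted p = 0.0101). SLC7A5's call at 0 mM ended without the undifferentiated 0 mM replicate A (0.66, adjusted p = 0.0554). Median centring ended the calls of SLC7A5 at both doses and of SLC3A2 at 20 mM, and their direction was kept.

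SLC1A4, a small neutral amino acid exchanger, was dim but separated: 339 and 309 in embryoid bodies with ethanol and 251 and 339 without it, against 158 and 117 in undifferentiated cells with ethanol and 148 and 123 without it. It rose by 1.11 ± 0.21 without ethanol (adjusted p = 0.00662). The other 3 did not pass at either dose. SLC38A2, a glutamine and alanine importer, read 16220 to 17780 over the 8 arrays and had changes of -0.08 ± 0.07 without ethanol and -0.02 ± 0.07 with it (95% interval -0.18 to 0.14). SLC1A5, a glutamine transporter, had changes of -0.08 ± 0.15 and 0.05 ± 0.15, and SLC7A1, a cationic amino acid transporter, of -0.18 ± 0.10 and -0.25 ± 0.10, in the same order.

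The tRNA synthetases, which load amino acids onto tRNA, fell by small amounts. Of 11 tested, 6 fell without ethanol (median -0.28) and 10 with it (median -0.40), and 0 rose, although quantile normalisation left 3 and 5 of these calls. Of all genes, 52.8% were called at 0 mM (24.7% fell) and 56.3% at 20 mM (27.1% fell). The median over all genes in the brightest decile was -0.22 at 0 mM and -0.30 at 20 mM. TARS1, the threonine enzyme, read 6166 and 6457 in embryoid bodies with ethanol and 6607 and 6457 without it, against 9772 and 10470 in undifferentiated cells with ethanol and 10000 and 9772 without it. It fell by 0.60 ± 0.07 without ethanol (adjusted p = 0.00137) and by 0.68 ± 0.07 with it (adjusted p = 0.000742). LARS1, the leucine enzyme, read 5888 and 6761 in embryoid bodies with ethanol and 5248 and 5495 without it, against 8511 on both undifferentiated arrays with ethanol and 8913 and 8511 without it. It fell by 0.70 ± 0.09 without ethanol (adjusted p = 0.00167), and all 4 of its tested probe sets had negative changes.

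YARS1, the tyrosine enzyme, fell by 0.50 ± 0.08 without ethanol (adjusted p = 0.00352) by its bright probe set, whose signals were 3388 to 4169 in embryoid bodies and 5248 to 5623 in undifferentiated cells. Its second probe set had a change of 1.73 ± 0.72 (adjusted p = 0.0975), so YARS1 rests on 1 probe set. IARS1, the isoleucine enzyme, read 11480 and 10960 in embryoid bodies with ethanol and 11750 and 11480 without it, against 13800 and 14790 in undifferentiated cells with ethanol and 14790 and 13800 without it. It fell by 0.30 ± 0.08 without ethanol (adjusted p = 0.0203).

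The alanine and glycine enzymes AARS1 and GARS1 also fell at both doses. WARS1, SARS1, NARS1 and CARS1, for tryptophan, serine, asparagine and cysteine, fell at 20 mM and had changes of -0.28 to -0.05 at 0 mM. EPRS1, which carries both the glutamate and proline activities, had changes of 0.08 ± 0.11 at 0 mM and -0.05 ± 0.11 at 20 mM by its brightest probe set. That probe set overlapped between stages at both doses. The 3 tested probe sets of EPRS1 ran from -0.66 to 0.08 at 0 mM and from -0.68 to -0.05 at 20 mM. By their average EPRS1 fell at both doses, so its result depends on the probe set. MARS1, for methionine, could not be separated from its microRNA: the brightest shared probe set read 5754 and 5623 in embryoid bodies with ethanol and 5370 and 5495 without it, against 6310 and 7079 in undifferentiated cells with ethanol and 6918 on both arrays without it.

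Several of these small falls depended on single arrays, on the scaling, on the filter or on which arrays set the spread. At 0 mM, the calls of IARS1 (without the undifferentiated replicate A or either embryoid body array of that dose, adjusted p 0.0725 to 0.0956), GARS1 (without any of the 4 arrays compared, 0.0957 to 0.115) and AARS1 (without 5 arrays, namely the undifferentiated 0 mM replicate B and each of the 4 embryoid body arrays, 0.0674 to 0.138) ended. Without the undifferentiated 0 mM replicate B, the change of AARS1 was -0.25 in place of -0.42. At 20 mM, SARS1 and NARS1 lost the call without 7 of the 8 arrays, all but the embryoid body 20 mM replicate A (adjusted p up to 0.183 and 0.152). WARS1 (up to 0.0926), AARS1 (up to 0.0561), CARS1 (up to 0.0950) and IARS1 (0.0593) lost it without the embryoid body 20 mM replicate B. The first 3 also lost it without the undifferentiated 20 mM replicate B, and CARS1 also without the embryoid body 20 mM replicate A. Directions were kept in all of these. Quantile normalisation ended 3 of the 6 calls at 0 mM, those of AARS1, GARS1 and IARS1 (-0.32 to -0.10, adjusted p 0.0954 to 0.352). At 20 mM it ended 5 of 10, those of LARS1, CARS1, SARS1, IARS1 and NARS1 (-0.22 to 0.00, adjusted p 0.0928 to 1). The median of all genes was then -0.07 at 0 mM and -0.09 at 20 mM. Averaging all probe sets of TARS1 ended its call at 20 mM (-0.32, adjusted p = 0.111). With no filter, AARS1 and GARS1 lost the call at 0 mM and SARS1 and NARS1 at 20 mM (limma, adjusted p 0.0683 to 0.0835). With only the arrays of the groups compared, AARS1 lost it at 0 mM, and WARS1, SARS1, NARS1 and CARS1 at 20 mM (adjusted p 0.0644 to 0.112).

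Among the regulators, ATF4 itself fell: 6 of 9 regulators fell at both doses, 1 rose without ethanol and 3 rose with it. Among all genes tested, 24.7% fell and 28.1% rose without ethanol, and 27.1% fell and 29.2% rose with it. ATF4 mRNA read 8318 and 8128 in embryoid bodies with ethanol and 8710 and 8913 without it. It read 12300 and 14790 in undifferentiated cells with ethanol and 12020 and 12880 without it. The stages did not overlap, with changes of -0.50 ± 0.10 without ethanol (adjusted p = 0.0098) and -0.71 ± 0.10 with it (adjusted p = 0.00229). The call at 0 mM ended without the embryoid body 0 mM replicate A (-0.48, adjusted p = 0.0525) and under quantile normalisation (-0.32, adjusted p = 0.0696).

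The partners and targets of ATF4 in this group split. CEBPB, a bZIP factor that pairs with ATF4, read 1318 and 1349 in embryoid bodies with ethanol and 1479 and 1622 without it, against 2630 and 3162 in undifferentiated cells with ethanol and 3020 and 3090 without it, and fell by 0.98 ± 0.11 without ethanol (adjusted p = 0.00101). TRIB3, a pseudokinase that ATF4 and DDIT3 induce and that feeds back on them, read 324 and 302 in embryoid bodies with ethanol and 316 and 295 without it. In undifferentiated cells it read 575 and 708 with ethanol and 646 and 617 without it, and it was 2.07-fold lower in embryoid bodies without ethanol (-1.05 ± 0.12, adjusted p = 0.00106). ATF3, a stress-induced repressor, read 537 and 479 in embryoid bodies with ethanol and 468 and 525 without it, against 912 and 776 in undifferentiated cells with ethanol and 794 and 851 without it. Its change was -0.73 ± 0.12 at both doses, and averaging all its probe sets ended both calls (-0.94, adjusted p = 0.0853, and -0.40, adjusted p = 0.407). CEBPG, a further partner, fell by 0.37 ± 0.08 (adjusted p = 0.0112), a call that ended without the embryoid body 0 mM replicate B (-0.35, adjusted p = 0.0616).

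DDIT3, which encodes the stress factor CHOP, went the other way. It read 214 and 182 in embryoid bodies with ethanol and 145 and 224 without it, against 91.2 and 85.1 in undifferentiated cells with ethanol and 67.6 and 55.0 without it. It rose by 1.56 ± 0.23 without ethanol (adjusted p = 0.00263) and by 1.16 ± 0.23 with it (adjusted p = 0.00683). The signal was low throughout, and without ethanol the undifferentiated arrays lay under their medians, so the fold is imprecise. ATF5, a bZIP factor of mitochondrial stress, rose at 20 mM only (0.51 ± 0.16, adjusted p = 0.0369, against -0.12 ± 0.16 at 0 mM, adjusted p = 0.572). That call ended without 7 of the 8 arrays, all but the undifferentiated 20 mM replicate B (adjusted p up to 0.126), and the change was 0.28 without the undifferentiated 20 mM replicate A, 0.21 under quantile normalisation and 0.10 with median centring.

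**Figure D3:**
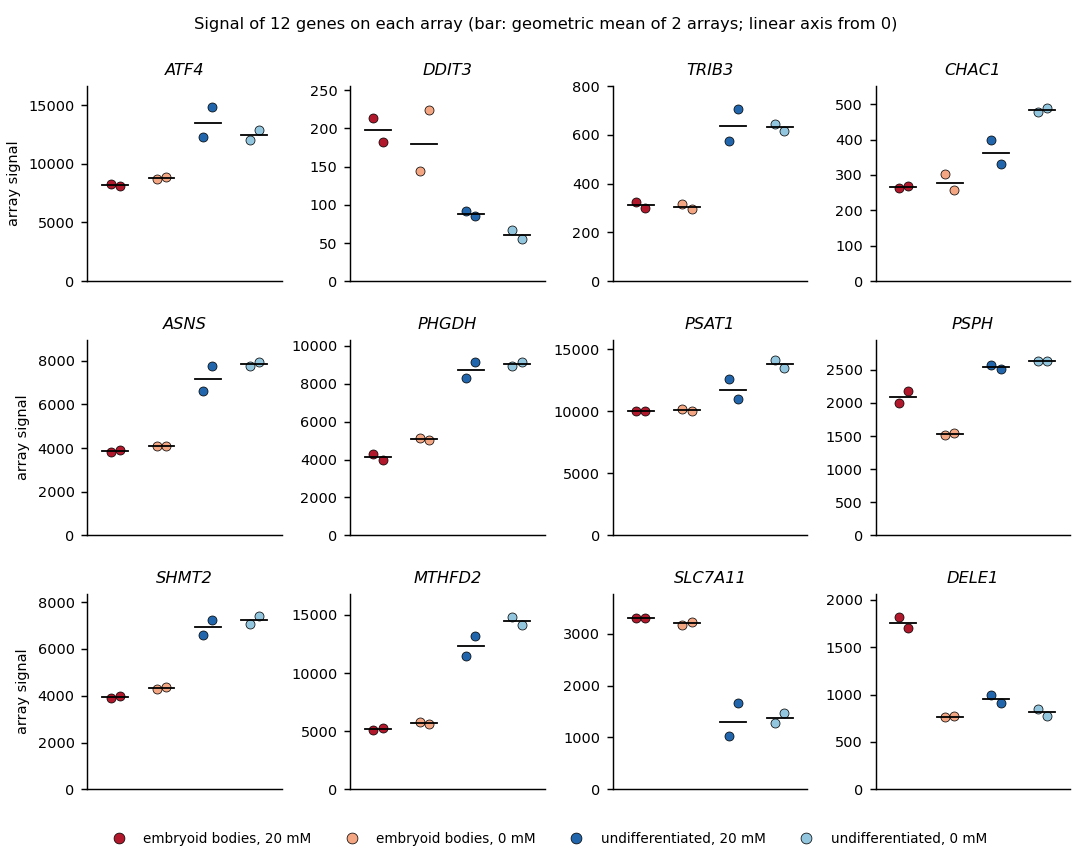
Signals of 12 genes on each of the 8 arrays (linear axes from 0), with a bar at the geometric mean of the 2 arrays of a group. From left to right in each panel stand embryoid bodies with 20 mM, embryoid bodies with 0 mM, undifferentiated cells with 20 mM and undifferentiated cells with 0 mM ethanol. ATF4, TRIB3, ASNS, PHGDH, SHMT2 and MTHFD2 are lower on all 4 embryoid body arrays, SLC7A11 and DDIT3 higher, and DELE1 stands out in embryoid bodies with ethanol at 1820 and 1698.

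EIF2AK1, the kinase that DELE1 activates, also gave opposite answers by probe set. The bright one, 217736_s_at, read 2042 on both embryoid body arrays with ethanol and 2239 and 2344 without it, against 2951 and 2884 in undifferentiated cells with ethanol and 2818 and 3020 without it, a fall of 0.35 ± 0.07 without ethanol (adjusted p = 0.00892). The call ended without the embryoid body 0 mM replicate A (-0.32, adjusted p = 0.0569). The second, 217735_s_at, read 380 and 363 in embryoid bodies with ethanol and 263 and 372 without it, against 141 and 191 in undifferentiated cells with ethanol and 135 and 166 without it, and rose by 1.06 ± 0.22 without ethanol (adjusted p = 0.0118 over all probe sets). Of 22 genes of the list with several tested probe sets, 15 had changes of 1 sign throughout at 0 mM and 16 at 20 mM, and PSPH and EIF2AK1 were the 2 called in both directions.

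The remaining 4 targets fell without ethanol, and 3 of them with it, against 24.7% and 27.1% of all genes. VLDLR, a lipoprotein receptor, had the largest fall of the 40 genes at 0 mM. It read 468 and 513 in embryoid bodies with ethanol and 398 and 363 without it, against 1514 and 1738 in undifferentiated cells with ethanol and 1995 and 1585 without it. The fall was 4.68-fold without ethanol (-2.23 ± 0.14, adjusted p = 0.000175) and 3.31-fold with it. DDIT4, an inhibitor of mTORC1 signalling, read 1585 and 1413 in embryoid bodies with ethanol and 1862 and 1778 without it. In undifferentiated cells it read 5888 and 4786 with ethanol and 7079 and 5012 without it, and it was 3.27-fold lower in embryoid bodies without ethanol (-1.71 ± 0.19, adjusted p = 0.00103). At 20 mM DDIT4 had the largest fall, 3.55-fold (-1.83 ± 0.19, adjusted p = 0.000701).

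CHAC1, which degrades glutathione, read 263 and 269 in embryoid bodies with ethanol and 302 and 257 without it, against 398 and 331 in undifferentiated cells with ethanol and 479 and 490 without it. It fell by 0.80 ± 0.12 without ethanol (adjusted p = 0.00308) and by 0.45 ± 0.12 with it (adjusted p = 0.0223). The second call ended without either embryoid body 20 mM array or the undifferentiated 20 mM replicate A (adjusted p 0.0767 to 0.0905). SESN2, a leucine sensor that restrains mTORC1, read 457 and 363 in embryoid bodies with ethanol and 275 on both arrays without it, against 363 and 309 in undifferentiated cells with ethanol and 398 and 447 without it. It fell at 0 mM (-0.61 ± 0.14, adjusted p = 0.0141), and at 20 mM the change was 0.28 ± 0.14 (adjusted p = 0.14). The call at 0 mM ended without either embryoid body 0 mM array or the undifferentiated 0 mM replicate B (adjusted p 0.0619 to 0.0695).

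Genes with and without the promoter element were set side by side. Of 14 tested genes with the element, 8 fell, 2 rose and 4 were not called at 0 mM, and of 19 with a window and no element, 11 fell, 2 rose and 6 were not called. ASNS, CHAC1, CEBPG and the synthetases TARS1, IARS1, AARS1 and GARS1, whose stretches are shown above, were among those that fell, and the transporters SLC1A4 and SLC3A2 were the 2 that rose. The 4 not called, CARS1, NARS1, SLC1A5 and SLC7A1, are not among the stretches shown, so those do not represent the 14 genes. The 0 mM calls of IARS1, AARS1 and GARS1 ended under quantile normalisation. At 20 mM, 10 fell, 2 rose and 2 were not called with the element, and 11, 4 and 4 without it. Of all genes, 24.7% fell and 28.1% rose at 0 mM, and 27.1% fell and 29.2% rose at 20 mM.

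The rest of the pathway was read from 7 further lists. The background for each list's counts is the share of all genes called. This was 52.8% at 0 mM (24.7% fell and 28.1% rose) and 56.3% at 20 mM (27.1% fell and 29.2% rose). Upstream, 7 of 16 eIF2 kinases, phosphatases and exchange factor subunits fell at each dose, and 2 rose at 0 mM and 1 at 20 mM. The share of this list called was near that of all genes at both doses. EIF2AK4, the kinase that senses uncharged tRNA, fell furthest (-1.48 ± 0.11 at 0 mM, adjusted p = 0.000328, and -1.15 ± 0.11 at 20 mM). IMPACT, an inhibitor of that kinase's activation, fell by 0.70 ± 0.09, the eIF2 subunit EIF2S3 by 0.65 ± 0.09 and the exchange factor subunit EIF2B3 by 0.55 ± 0.09 at 0 mM.

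Synthetases outside the list behaved less uniformly. Of 7 cytosolic synthetases and cofactors, 1 rose and 0 fell at 0 mM, and 0 rose and 2 fell at 20 mM. RARS1, for arginine, rose by 0.35 ± 0.10 at 0 mM (adjusted p = 0.0271), KARS1, for lysine, fell by 0.33 ± 0.07 at 20 mM (adjusted p = 0.00744), and HARS1 and VARS1 had changes of 0.12 ± 0.08 and -0.17 ± 0.17 at 0 mM. Of 15 mitochondrial synthetases, 4 rose and 6 fell at 0 mM and 5 did each at 20 mM. MARS2 fell by 0.56 ± 0.07 and EARS2 by 0.61 ± 0.09 at 0 mM, while FARS2 rose by 0.68 ± 0.10 and LARS2 by 0.35 ± 0.07. Whether the listed synthetases differ from these was not tested.

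Of 17 one-carbon and proline enzymes outside the list, 3 rose and 7 fell at 0 mM, and 3 rose and 9 fell at 20 mM. GCSH, of the glycine cleavage system, fell by 0.71 ± 0.08, AHCY, which clears S-adenosylhomocysteine, by 0.65 ± 0.08 and the aspartate transaminase GOT1 by 0.51 ± 0.07 at 0 mM, whereas MAT2A, which makes S-adenosylmethionine, rose by 0.80 ± 0.09 (adjusted p = 0.00101). Of 18 further amino acid transporters, 9 rose and 5 fell at 0 mM and 8 rose and 4 fell at 20 mM. SLC7A3, a cationic amino acid transporter of pluripotent cells, fell by 1.35 ± 0.08 (adjusted p = 0.000165), while SLC7A7 rose by 2.06 ± 0.22, the glutamate transporter SLC1A2 by 1.35 ± 0.15 and the lysosomal transporter SLC36A1 by 1.25 ± 0.16 at 0 mM.

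Further ATF4 targets and mitochondrial stress genes mostly fell, 10 of 17 at 0 mM and 12 at 20 mM, with 3 and 2 rising. The mitochondrial chaperonin HSPE1 fell by 0.90 ± 0.08, the bZIP factor JDP2 by 1.01 ± 0.10 and the translation repressor EIF4EBP1 by 0.95 ± 0.11, and the angiogenic factor VEGFA rose by 1.25 ± 0.11 at 0 mM. Endoplasmic reticulum stress genes went the other way: 11 of 12 rose and 0 fell at each dose (median 0.62 at 0 mM and 0.57 at 20 mM). HSPA5, the main chaperone of that compartment, rose by 0.78 ± 0.08 at 0 mM (adjusted p = 0.000667), DNAJC3 by 0.70 ± 0.08, XBP1 by 0.81 ± 0.10 and HERPUD1 by 0.76 ± 0.11. None of the genes of these 7 lists was called for ethanol in either stage.

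The second question was whether 24 h of 20 mM ethanol moved the listed genes. In embryoid bodies 1 of 40 rose, the regulator DELE1, and 0 fell, against 0.0711% of all genes called (10 of 14072, with 0.0426% rising and 0.0284% falling). The median change of the 40 was -0.05, against 0.02 over all genes. An unadjusted limma p under 0.05 was found for 9 of the 40 and for 3137 of all 14072 genes, a similar share. The arrays with and without ethanol did not overlap in 27 of 40 genes, against 57.5% of all genes. These comparisons share the embryoid body arrays without ethanol with the stage comparison at 0 mM, so no relation between them is drawn. Median centring of the arrays, which put the median of all genes at -0.25 in place of 0.02, gave 1 gene higher and 12 lower in place of 1 and 0, with 27.6% of all genes called.

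DELE1, the mitochondrial protein that signals to EIF2AK1, read 1820 and 1698 in embryoid bodies with ethanol and 759 and 776 without it. In undifferentiated cells it read 1000 and 912 with ethanol and 851 and 776 without it. Both embryoid body arrays with ethanol lay above the other 6 arrays, and the rise in embryoid bodies was 2.29-fold (1.20 ± 0.09, adjusted p = 0.0439). In undifferentiated cells the change was 0.23 ± 0.09 (adjusted p = 0.686), and the difference between these ethanol effects was 0.96 ± 0.12 (adjusted p = 0.187). At 20 mM DELE1 was also higher in embryoid bodies than in undifferentiated cells (0.88 ± 0.09, adjusted p = 0.000628), from the same 2 high arrays, and at 0 mM that change was -0.08 ± 0.09 (adjusted p = 0.458).

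All of this comes from 1 probe set, 201978_s_at. The next, 227056_at, read 575 and 479 in embryoid bodies with ethanol and 617 and 550 without it, against 501 and 447 in undifferentiated cells with ethanol and 468 and 407 without it, an ethanol change of -0.15 ± 0.14 in embryoid bodies. The third, 201977_s_at, read 407 and 427 with ethanol and 457 and 417 without it in embryoid bodies, against 380 and 324 with ethanol and 355 and 324 without it in undifferentiated cells, a change of -0.07 ± 0.11 in embryoid bodies. Neither showed the rise. With all probe sets in 1 fit, chosen after seeing the data, the first had adjusted p = 0.0771. The call ended without any of the 8 arrays (1.15 to 1.25, adjusted p 0.0589 to 0.163) and held under 4 of 17 alternatives. The summed mesenchyme and endoderm markers were also higher, and the pluripotent and neural ones lower, in embryoid bodies with ethanol. No single marker of these lists was called for ethanol in embryoid bodies. The array medians were 102 against 85.1. The part of these marker and median differences in the DELE1 signal was not tested.

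The other genes of the list did not pass for ethanol in embryoid bodies. ATF4 had a change of -0.10 ± 0.10 (95% interval -0.36 to 0.16), ASNS of -0.08 ± 0.09 (-0.31 to 0.15), TRIB3 of 0.03 ± 0.12 (-0.25 to 0.32), CHAC1 of -0.07 ± 0.12 (-0.36 to 0.23) and DDIT3 of 0.13 ± 0.23 (-0.43 to 0.69). The intervals of ATF4, ASNS, TRIB3 and CHAC1 leave room for changes up to about 0.36 in size, and that of DDIT3 for more. ALDH1L2 had 0.63 ± 0.16 (adjusted p = 0.125), with all 4 embryoid body arrays below their medians, so this value sets dim signals against each other. The largest values among the rest were SESN2 at 0.56 ± 0.14 (adjusted p = 0.119), PSPH at 0.45 ± 0.07 (adjusted p = 0.0777), VLDLR at 0.37 ± 0.14 (adjusted p = 0.208), ATF5 at 0.33 ± 0.16 (adjusted p = 0.286), PHGDH at -0.30 ± 0.08 (adjusted p = 0.126) and SARS1 at -0.30 ± 0.08 (adjusted p = 0.129). Of 11 synthetases, 10 had negative values, with a median of -0.15, beside a median of -0.10 over all genes in the brightest decile.

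In undifferentiated cells 0 of 40 genes passed for ethanol by limma, and 0.00711% of all genes were called (1 of 14072). An unadjusted limma p under 0.05 was found for 4 of the 40, against 986 of all 14072 genes. The arrays did not overlap in 9 of 40 genes, against 27.5% of all genes. ATF4 had a change of 0.12 ± 0.10 (95% interval -0.14 to 0.37), ASNS of -0.13 ± 0.09 (-0.36 to 0.10) and TRIB3 of 0.02 ± 0.12 (-0.27 to 0.30). The largest values were DDIT3 at 0.53 ± 0.23 (adjusted p = 0.711) and CHAC1 at -0.42 ± 0.12 (adjusted p = 0.587). The test of the difference between the ethanol effects of the stages called 0 of 40 genes and 0% of all genes. Its unadjusted limma p was under 0.05 for 6 of the 40, against 1828 of all 14072 genes.

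**Figure D4:**
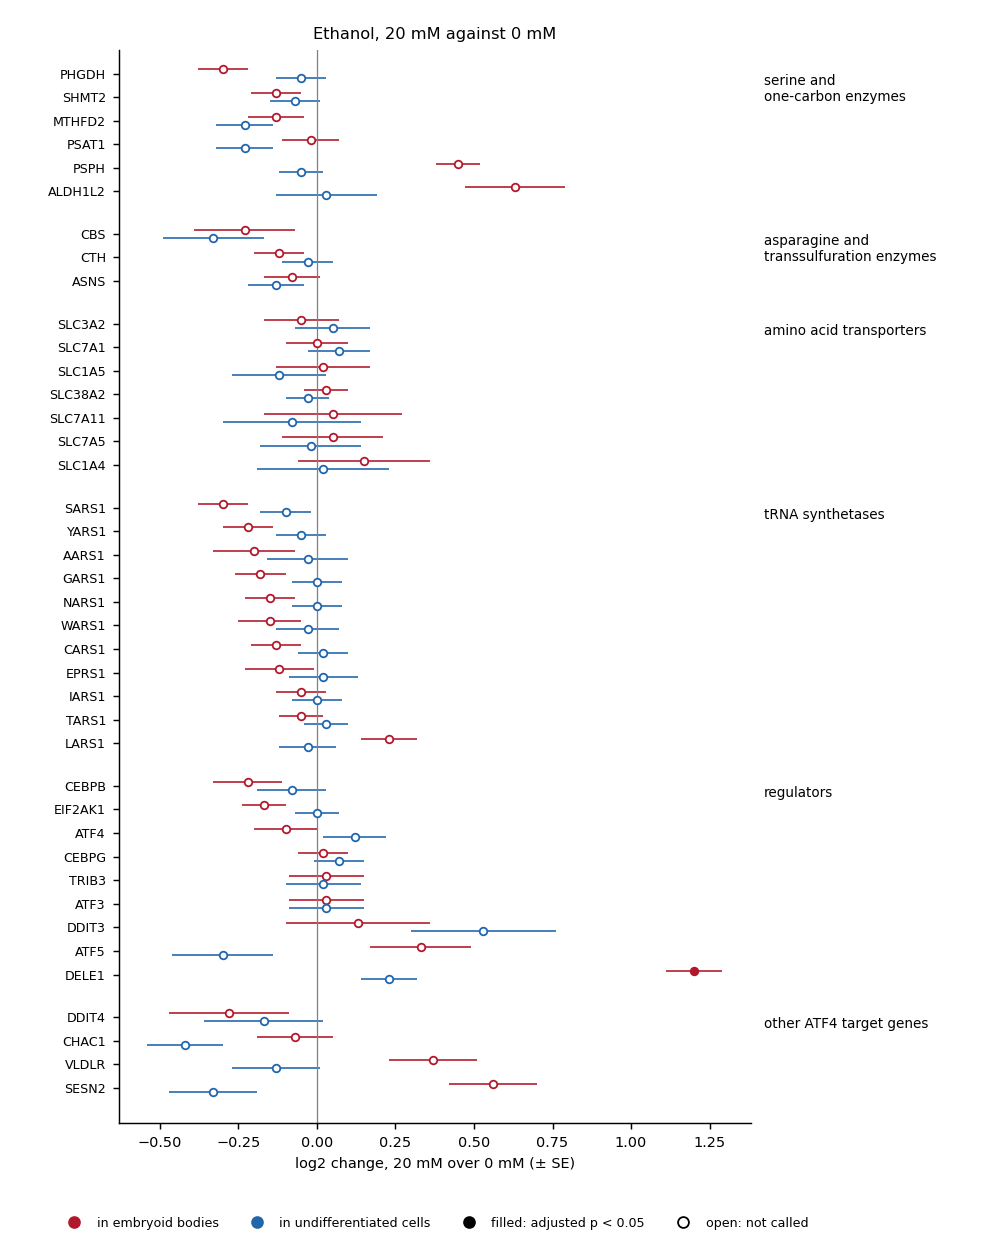
Change with ethanol for the 40 tested genes (log2, 20 mM over 0 mM), by gene group, with ± SE bars. Red points are embryoid bodies and blue points undifferentiated cells, and filled points passed adjusted p under 0.05. DELE1 in embryoid bodies, at 1.20, is the 1 filled point, and the other 39 values in embryoid bodies lie between -0.30 and 0.63.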

How the data were processed

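The deposited values are log10 array signals rounded to 2 decimals, by the evidence of the values: the authors' files reach a common 2% trimmed mean signal, the form of MAS 5 scaling, whereas RMA is the tool named per the submitters' processing notes, with no version. The design had assumed log2 values, so the deposited log10 values were multiplied by 3.322. One rounding step is 0.03322 on the log2 scale. No further normalisation was applied.

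Probe sets were named from the platform annotation (41097 of 54675 name 1 gene), and a gene was read by its probe set of highest mean. Genes were tested with at least 2 arrays above that array's median. limma 3.58.1 in R 4.3.3 fitted 1 mean per group to 8 arrays (4 residual and 1.81 prior degrees of freedom, no trend), with Benjamini-Hochberg adjustment over 14072 genes. The code was tested on simulated data. Deviations of like-lettered arrays correlated at -0.025 to 0.049, so the letters were not taken as pairs. With 2 arrays per group, their number limits the precision.

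The members and gene lists were chosen with earlier results of these data known. Every member may be named, 12 of them always with each array's value. Further members given with each array's value are up to 4 per group with the smallest p in the stage comparison at 0 mM, or were chosen after their values were seen. From each other list, up to 4 genes by the same p are named. Alternatives were other filters, probe set rules, scalings and variance models, a replicate block, fewer arrays, and each array left out. A fit of all probe sets was added after seeing the data.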

Additional observations from a re-analysis of the deposited data

Results flagged for a closer look

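PSPH and SESN2 stood out because both embryoid body arrays with ethanol lay above both without it, while both undifferentiated arrays with ethanol lay below both without it. For SESN2 the change with ethanol was 0.56 in embryoid bodies and -0.33 in undifferentiated cells, a difference of 0.90 (limma, adjusted p = 0.272 over all genes). For PSPH the change was 0.45 in embryoid bodies and -0.05 in undifferentiated cells, a difference of 0.50 (limma, adjusted p = 0.255). Neither difference passed after adjustment. The second probe set of PSPH gave 0.15 and -0.12, and the second of SESN2 gave 0.28 and -0.13, with smaller differences of 0.27 and 0.42. In undifferentiated cells PSPH read 2570 and 2512 with ethanol and 2630 on both arrays without it. That change of -0.05 ± 0.07 is small beside its error and the rounding step of 0.03322. The second probe set of PSPH overlapped there (661 and 832 with ethanol, 776 and 832 without it).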

How the results depend on the processing

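The stage counts stayed within 1.5 times the reported 30 and 33 under each alternative except that without the _x_at and _s_at probe sets, which gave 18 at 0 mM and 18 at 20 mM because 25 genes of the list remained (50.5% and 53.7% of all genes called). Leaving out 1 array gave 24 to 31 at 0 mM and 25 to 30 at 20 mM, and 8 and 9 members lost a call in at least 1 of these fits. Median centring gave 4 higher and 32 lower at 0 mM and 4 and 31 at 20 mM, with the median of all genes at -0.27 and -0.40 and that of the list at -0.71 and -0.82. The count of 1 for ethanol in embryoid bodies was 0 with no filter, with the mean of all probe sets, without _x_at and _s_at probe sets, with only the arrays compared, and without each array in turn (0 to 0). It was 2 with the stricter filter, 4 with trend and robust settings in the variance model, and 13 with median centring. For the difference between ethanol effects, the stricter filter and the trended variance each called 1. Undifferentiated cells gave 0 throughout for ethanol.

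The replicate block gave 29 and 32 for the stages and 0 for ethanol in embryoid bodies, in undifferentiated cells and for their difference, and the letters had no basis as pairs.

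Directions turned in 13 cases where either value was called. Averaging all probe sets of 1 gene gave PSPH 0.16 and 0.48, YARS1 0.61 and 0.17 and EIF2AK1 0.36 and 0.33 (0 and 20 mM), EPRS1 -0.34 at 0 mM and SARS1 0.07 at 20 mM. Without _x_at and _s_at probe sets, YARS1 was 1.73 and 1.01, DELE1 0.42 at 0 mM and DELE1 with ethanol in embryoid bodies -0.15, each from another probe set. Quantile normalisation gave SLC38A2 0.24 at 20 mM. The cause was not tested beyond the change of probe set.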
